A study of Mus musculus with 16 samples.

Results

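Mice that lack AKT2 in brown fat were compared with their wild-type littermates after housing at 30 °C, a thermoneutral temperature at which a mouse needs little heat from brown fat. The comparison used 8 of the 16 RNA-sequencing libraries of the study, 4 from knockout mice (KO) and 4 from wild-type mice (WT), chosen by their titles and genotype labels, and every gene that passed a filter on low counts. The tissue was interscapular brown fat of C57BL/6J mice kept at the test temperature for 4 weeks, from 9 to 13 weeks of age. In the KO mice Akt2 was deleted with UCP1-CreER, a Cre recombinase driven by the Ucp1 promoter, which directs the deletion to brown adipocytes. CreER enzymes act when tamoxifen is given, but the labels give no tamoxifen schedule, no deleted exon and no sex, and do not say whether the WT littermates carried the Cre transgene or received tamoxifen. The other 8 libraries, from WT and KO mice at 22 °C, had 4 libraries a group too and entered the same statistical model. Whether each library came from an animal of its own is not stated, and p-values here reflect only how these libraries vary.

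AKT2 is a serine/threonine kinase that insulin activates through its receptor, the insulin receptor substrates and phosphoinositide 3-kinase. In fat cells it drives the movement of the glucose transporter GLUT4 to the cell surface, restrains FOXO transcription factors and promotes the activity of SREBP1 and ChREBP, the factors that turn on fatty acid synthesis genes. Brown fat burns fatty acids and glucose through UCP1, which lets protons leak across the inner mitochondrial membrane, and the sympathetic drive to this tissue is low at thermoneutrality.

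The libraries held from 15303069 to 16022550 counts in WT and from 12751528 to 17020621 in KO at 30 °C. Brown adipocyte genes were present in all 8 libraries, with Ucp1 at 1410 to 1970 counts scaled to library size (CPM) and Cidea, a lipid droplet protein of brown adipocytes, at 1743 to 2379 CPM. Skeletal muscle genes made up more than 0.1% of counts in WT replicates 2 and 4 and KO replicates 1 and 2, and at most 0.0246% in the other 4 libraries. Over the 8 libraries at 30 °C the first principal component (43.8% of variance) had positive scores in those 4 libraries and negative scores in the other 4. Liver transcripts such as albumin exceeded 0.01% of counts in WT replicate 3 and KO replicate 2. Both signals occurred in both genotypes, from 0.00532% to 0.341% in WT and from 0.00492% to 0.516% in KO for muscle. For liver, WT libraries ran from 0.00601% to 0.0194%. KO replicates 1, 3 and 4 lay below every WT library, at 0.000291%, 7.06e-05% and 0.00219%, and KO replicate 2 was at 0.0405%. At 22 °C the muscle limit of 0.1% was passed by KO replicate 1, at 0.844%, the highest of the 16 libraries. The liver limit of 0.01% was passed there by WT replicates 2 and 4, at 0.0212% and 0.0238%. In whole tissue, fewer cells of a type and less RNA per cell cannot be told apart.

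Few genes passed the main test of KO against WT at thermoneutrality, and the number depended on the tool. The test took its estimate of the spread from all 16 libraries, those at 22 °C included. Of 14103 genes tested, 6 passed a Benjamini-Hochberg adjusted p of 0.05 in edgeR's quasi-likelihood test, which is 0.0425% of the genes. Mreg, Elmod2, Ucp2 and Kcnk2 were higher in KO (4 genes, 0.0284%), and Akt2 and its pseudogene Akt2-ps were lower (2 genes, 0.0142%). At an unadjusted p under 0.05 there were 608 genes, 324 higher and 284 lower, or 4.31% of those tested. That count was 597 in DESeq2, 2073 in limma-voom and 1528 of 13638 genes in a fit of the libraries at 30 °C alone. The few calls in edgeR are therefore not a measure of how many genes differ. The 4 KO libraries lay wholly above or wholly below the 4 WT libraries for 837 genes, or 5.93%. At 22 °C the same model called 2482 genes, or 17.6%, with 1061 higher in KO (7.52%) and 1421 lower (10.1%).

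The spread of fold changes was narrow at 30 °C. Between the 5th and 95th percentiles genes ran from -0.35 to 0.39 on the log2 scale, against -0.69 to 0.89 at 22 °C, and 88 genes had a 2-fold or larger difference at 30 °C against 975 at 22 °C. At 22 °C the 20 skeletal muscle markers had a median of 3.86 with 0 called, and KO replicate 1 held 0.844% muscle counts. The part of muscle in the wider spread at 22 °C was not tested. The median gene stood at 0.02 at both temperatures, with a median standard error (SE) of 0.15 at 30 °C. DESeq2 called 22 genes and limma-voom with sample weights called 44 in the same comparison, and all 6 genes were among both sets. The count moved where libraries were left out, between 2 and 7 when 1 library was left out. Without the libraries over the muscle limit it was 1 (Akt2), without those over the liver limit 2 (Akt2 and Hipk2), and without WT replicate 2 it was 2 (Akt2 and Mreg). A fit of the libraries at 30 °C alone called 4 genes, Akt2, Mreg, Ucp2 and Pld6, and not Elmod2, Kcnk2 or Akt2-ps.

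**Figure D1:**
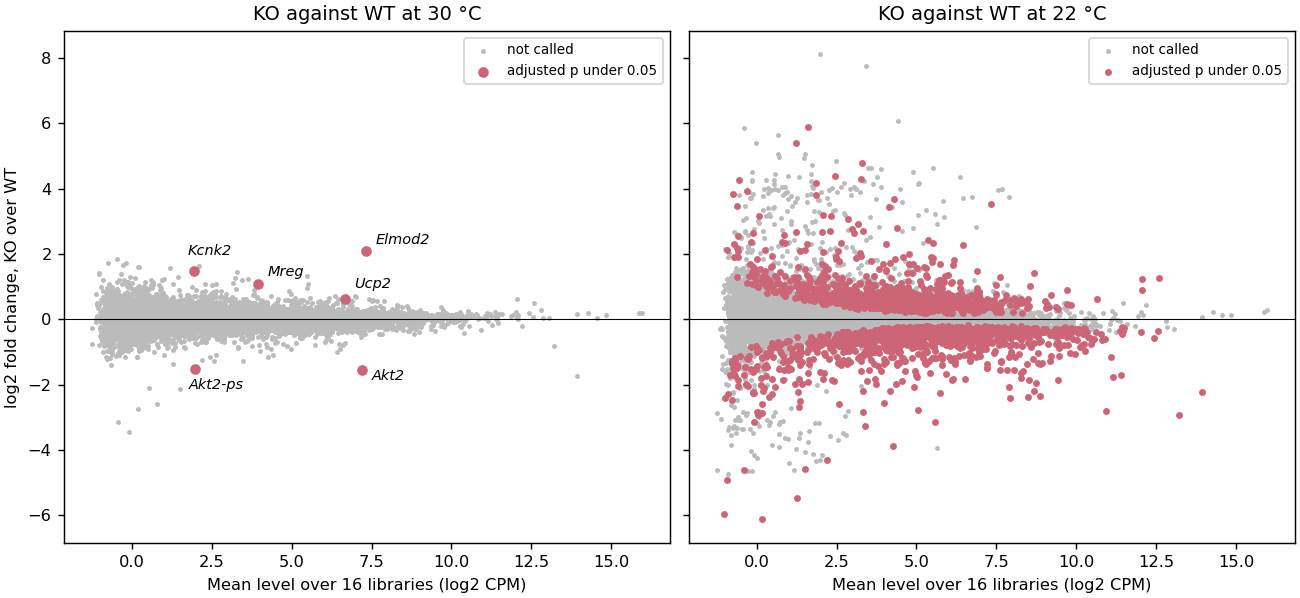
Each point is a tested gene, with its mean level over 16 libraries (log2 CPM) on the x axis and the log2 fold change of KO over WT on the y axis, at 30 °C (left) and 22 °C (right). Red points passed an adjusted p of 0.05, 6 genes at 30 °C and 2482 at 22 °C, and the cloud is narrower at 30 °C.

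The targeted gene was lower in every KO library. Akt2 lies on the plus strand of chromosome 7 from 27591552 to 27640826 in GRCm38 (identifier ENSMUSG00000004056). Its level was 196, 192, 221 and 205 CPM in WT replicates 1 to 4 and 81.0, 66.2, 74.4 and 56.2 CPM in KO replicates 1 to 4. The KO libraries did not overlap the WT libraries, and the highest KO library was below the lowest WT library by more than the whole range within either group. The means were 204 ± 12.9 and 69.4 ± 10.7 CPM (SD, n = 4), so that KO tissue held 34.1% of the WT level. The log2 fold change was -1.55 (SE 0.10, edgeR adjusted p = 2.13e-06), and at 22 °C it was -1.50. The difference between the temperatures was -0.06, with a 95% interval from -0.37 to 0.25. A count over the whole gene includes reads from any exon that stayed in place and from cells outside the reach of UCP1-CreER.

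Akt2-ps, a processed pseudogene on chromosome 11 (16514533 to 16515981), was at 4.99, 6.07, 5.30 and 5.14 CPM in WT and at 2.26, 2.15, 1.96 and 1.14 CPM in KO. Its log2 fold change of -1.52 (edgeR adjusted p = 0.00923) was close to that of Akt2. The pseudogene shares sequence with Akt2, and its counts cannot be told apart from reads of Akt2 itself.

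Akt1, the most widely expressed AKT gene, did not pass the test at 30 °C. WT libraries averaged 125 ± 10.1 CPM and KO libraries 140 ± 6.65 CPM, a log2 difference of 0.16 with a 95% interval from -0.01 to 0.33.

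The stretch upstream of a gene holds much of the sequence that transcription factors read, so the promoters of the 3 more abundant genes that were higher in KO are shown here. They are the 250 bases before the RefSeq start site on GRCm38.p6, for Mreg at chr1:72212315-72212564 on the minus strand (the first of 2 listed starts), for Elmod2 at chr8:83332487-83332736 on the minus strand and for Ucp2 at chr7:100493108-100493357 on the plus strand. Capitals mark a match to a searched motif.
Mreg: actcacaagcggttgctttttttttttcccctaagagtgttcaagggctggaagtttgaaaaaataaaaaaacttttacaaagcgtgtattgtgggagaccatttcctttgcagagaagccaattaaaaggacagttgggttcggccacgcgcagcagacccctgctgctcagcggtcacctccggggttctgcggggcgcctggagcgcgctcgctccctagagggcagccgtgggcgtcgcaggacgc
Elmod2: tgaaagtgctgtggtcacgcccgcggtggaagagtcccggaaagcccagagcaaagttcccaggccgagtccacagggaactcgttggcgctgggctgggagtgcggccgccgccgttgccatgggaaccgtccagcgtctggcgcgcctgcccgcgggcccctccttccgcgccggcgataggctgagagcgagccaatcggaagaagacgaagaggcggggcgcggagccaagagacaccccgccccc
Ucp2: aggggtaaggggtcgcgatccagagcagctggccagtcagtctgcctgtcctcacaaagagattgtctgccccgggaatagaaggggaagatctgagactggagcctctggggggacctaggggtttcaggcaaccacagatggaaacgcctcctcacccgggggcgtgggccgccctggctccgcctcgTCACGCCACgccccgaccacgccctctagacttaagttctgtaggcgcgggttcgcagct
The motifs searched on both strands were the forkhead core TGTTTAC, bound by FOXO and other forkhead factors, the E-box CACGTG, and the sterol regulatory element TCACNCCAC. They occurred in 3.17%, 6.04% and 1.04% of 32536 RefSeq promoter windows of the same length. The Ucp2 window held the sterol regulatory element at base 191, counted from its 5′ end, and the Mreg and Elmod2 windows held none of the 3. No match overlapped another.

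Mreg encodes melanoregulin, a protein that acts in the transport and shedding of pigment organelles and in membrane traffic. Mreg (chromosome 1, 72159442 to 72212307) was at 13.7, 11, 11.9 and 12.6 CPM in WT and at 26.9, 25.9, 25.4 and 25.9 CPM in KO. The KO libraries lay close together and all above WT. The log2 fold change was 1.08 (SE 0.13, edgeR adjusted p = 0.00359), a 2.12-fold rise. Mreg stayed past the threshold when any 1 of the 8 libraries was left out, with adjusted p from 0.00711 to 0.038.

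Ucp2 encodes a mitochondrial carrier related to UCP1 that is found in many tissues and is thought to move metabolites rather than to make heat. Ucp2 (chromosome 7, 100493337 to 100502020) was at 113, 109, 106 and 106 CPM in WT and at 187, 151, 159 and 170 CPM in KO. Every KO library was above every WT library, and WT varied little. The log2 fold change was 0.62 (SE 0.08, edgeR adjusted p = 0.00785), a 1.53-fold rise. The call was lost without WT replicate 2, 3 or 4, with adjusted p up to 0.0693. Dnajb13 overlaps the end of Ucp2 on the other strand, with no stated strand setting to separate their reads, and stood at -0.21. Ucp3, the neighbouring uncoupling protein gene 6.90 kb before Ucp2, was at 83.8 ± 18.5 CPM in WT and 77.0 ± 26.1 CPM in KO, with a log2 difference of -0.12.

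Kcnk2 encodes the potassium channel TREK-1. Its level was low, at 2.85, 1.55, 1.61 and 1.81 CPM in WT and 6.78, 4.90, 6.12 and 3.98 CPM in KO, with no overlap. The log2 fold change was 1.47 (SE 0.22, edgeR adjusted p = 0.0115). The call was lost without any 1 of WT replicates 2, 3 and 4 and KO replicates 1 and 3, with adjusted p up to 0.0967.

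Elmod2 encodes a regulator of small GTPases of the ARF family. Elmod2 (chromosome 8, 83312632 to 83332486) was at 28.2, 33.8, 34.7 and 34.3 CPM in WT and at 166, 156, 180 and 59.8 CPM in KO. KO replicate 4 stood far below the other KO libraries but still above every WT library. The log2 fold change was 2.10 (SE 0.29, edgeR adjusted p = 0.00785), a 4.29-fold rise and the largest of the 6. It was 2.35 without KO replicate 4, and the call was lost without WT replicate 2 (adjusted p = 0.0586). Over 20 alternative settings the call was lost in 5, with edgeR adjusted p up to 0.906. The fit of the libraries at 30 °C alone was among those 5. KO replicate 4 was also the lowest KO library for Akt2 itself.

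**Figure D2:**
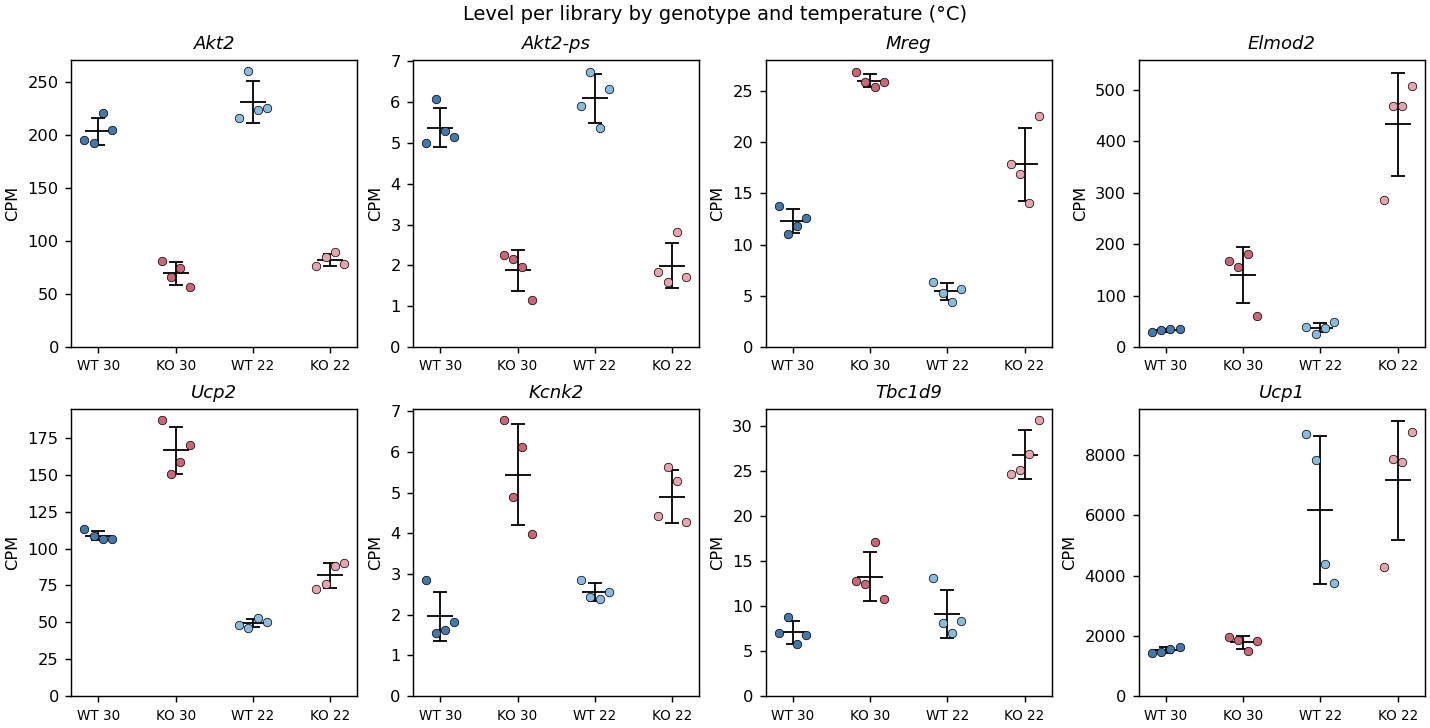
CPM of 8 genes in each library of the 4 groups (WT and KO at 30 and 22 °C), with the mean and SD as bars. At 30 °C the KO libraries lie apart from the WT libraries for all but Ucp1, and KO replicate 4 is low for Elmod2 at 59.8 CPM.

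Elmod2 lies beside Ucp1, whose promoter drives the Cre used to delete Akt2. Ucp1 (chromosome 8, 83290352 to 83298452, plus strand) is flanked by Tbc1d9, 17.4 kb before it, and by Elmod2, 14.2 kb after it on the opposite strand. Tbc1d9, a gene with a GTPase-activating domain for RAB proteins, was at 6.95, 8.77, 5.76 and 6.77 CPM in WT and 12.8, 12.4, 17.1 and 10.7 CPM in KO, with no overlap. Its log2 difference of 0.90 did not pass edgeR (adjusted p = 0.271) but passed DESeq2 and limma-voom, and at 22 °C it was 1.55 (edgeR adjusted p = 8.54e-05). Ucp1 itself was at 1410, 1470, 1570 and 1620 CPM in WT and 1970, 1860, 1480 and 1840 CPM in KO. The groups overlapped through KO replicate 3, and the log2 difference was 0.23, with a 95% interval from -0.28 to 0.75.

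Of 12 other tested genes within 500 kb of Ucp1, 1, Elmod2, was called at 30 °C and 2, Elmod2 and Tbc1d9, had an unadjusted p under 0.05. Scoc, the next gene past Elmod2, stood at -0.03. Around Akt2 the same window held 27 other tested genes, of which 0 were called by edgeR and 1 had an unadjusted p under 0.05, with log2 differences from -0.48 to 0.31. The nearest neighbours of Akt2, 2310022A10Rik and Map3k10, stood at 0.11 and -0.02. Since the labels do not say whether WT mice carried UCP1-CreER, the loss of AKT2 and the presence of the transgene cannot be told apart for any gene here.

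**Figure D3:**
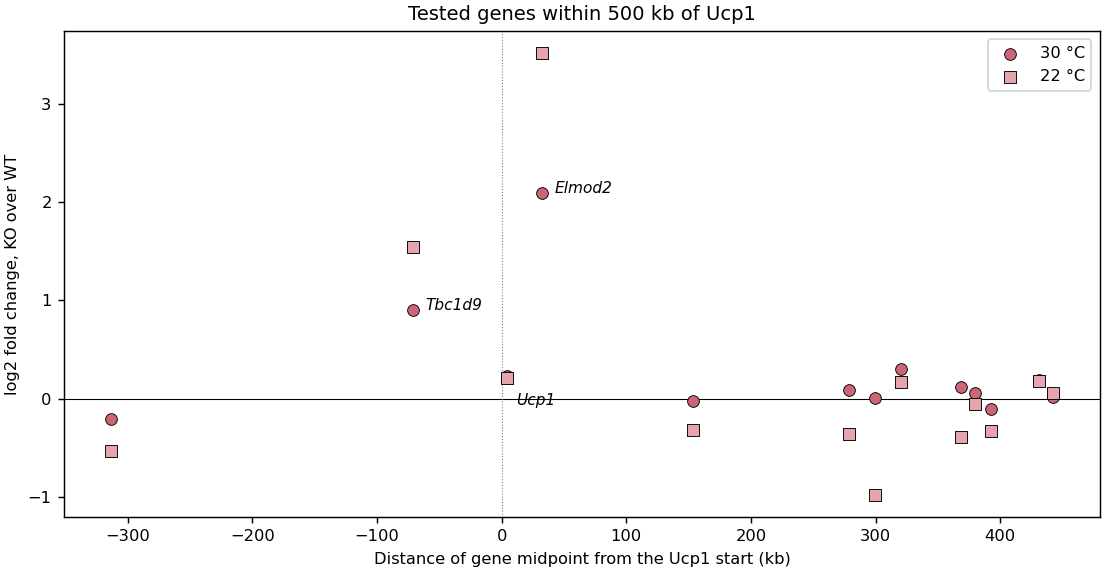
The x axis gives the distance of each tested gene's midpoint from the Ucp1 start (kb) and the y axis its log2 fold change of KO over WT, with circles for 30 °C and squares for 22 °C. Elmod2 (2.10 at 30 °C) and Tbc1d9 (0.90) stand above the other genes of the window, Ucp1 included.

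A further 14 genes passed both DESeq2 and limma-voom but not edgeR, where their adjusted p ran from 0.172 to 0.434. Higher in KO were Osbp2, Glud1, Dnph1, Abcc8 and Tbc1d9. Glud1, the mitochondrial glutamate dehydrogenase, was at 318, 313, 264 and 325 CPM in WT and 400, 383, 407 and 407 CPM in KO. Abcc8, the sulphonylurea receptor subunit of ATP-sensitive potassium channels, was at 1.82 ± 0.238 CPM in WT and 3.87 ± 0.402 CPM in KO. Neither gene's groups overlapped.

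Lower in KO were Pqlc3, Sema5a, Ltbp3, Ccdc3, Plxdc2, Sulf2, Rarres2, Mturn and Cacna1a. Ltbp3, which binds latent TGF-beta outside cells, was at 165, 179, 208 and 177 CPM in WT and 147, 145, 129 and 114 CPM in KO. Rarres2, the gene of the adipokine chemerin, was at 51.9, 59.6, 64.6 and 64.0 CPM in WT and 41.5, 30.5, 33.1 and 39.8 CPM in KO. The groups did not overlap for either gene, and the edgeR log2 differences were -0.45 and -0.73.

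Among genes of insulin signalling from the receptor to AKT, Akt2 was the only call of 32 tested. The list had a median log2 difference of -0.08, against 0.02 for all genes, and 10 of 32 members were positive. Insr, the insulin receptor gene, was at 91.2 ± 2.30 CPM in WT and 94.3 ± 8.64 CPM in KO, a difference of 0.05 with a 95% interval from -0.16 to 0.25. Irs2, an insulin receptor substrate, stood at -0.29 with a wide interval from -1.39 to 0.81. Grb14, an adaptor that inhibits the insulin receptor, was at 66.4, 89.3, 79.8 and 82.0 CPM in WT and 42.2, 53.9, 57.6 and 79.1 CPM in KO. KO replicate 4 overlapped WT, and the difference of -0.45 did not pass edgeR (unadjusted p = 0.0163).

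Trib3, a pseudokinase that binds AKT, stood at -0.63 (unadjusted p = 0.0266), also with overlap. Sgk2, a kinase related to AKT that depends on phosphoinositide 3-kinase, was at 4.64, 3.67, 4.49 and 7.74 CPM in WT and 6.57, 10.6, 10.9 and 11.1 CPM in KO. Its difference of 0.93 did not pass, while at 22 °C the effect was 4.30, and the difference between temperatures of -3.37 passed (edgeR adjusted p = 0.0012). Akt2, Grb14, Trib3 and Sgk2 were the members with an unadjusted p under 0.05, 4 of 32 against 4.31% of all genes tested.

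Of 25 tested FOXO factors and typical targets, 0 were called by edgeR, DESeq2 or limma-voom and 0 had an unadjusted p under 0.05. The list's median was 0.01 and its members ran from -0.33 to 0.58. Foxo1 was at 84.0 ± 3.81 CPM in WT and 87.5 ± 6.73 CPM in KO. Pck1, which makes glycerol phosphate precursors in fat and is a classic target of FOXO1 in liver, was at 3400 ± 498 and 3420 ± 392 CPM.

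Fatty acid synthesis genes had mostly negative differences, none of which passed edgeR's adjusted test. Of 16 tested members of the list, 0 were called by edgeR, 2 had an unadjusted p under 0.05 and 4 were positive, with a median of -0.18. Of all genes tested, 4.31% had an unadjusted p under 0.05 and 7628 of 14103 were positive. Scd1, the desaturase that makes oleate from stearate, was at 5600, 6930, 15200 and 5890 CPM in WT and at 4120, 3080, 1320 and 1680 CPM in KO. Every KO library was below every WT library, and WT replicate 3 stood far above the rest. The log2 difference was -1.72 (SE 0.40, edgeR adjusted p = 0.42), limma-voom gave an adjusted p of 0.048, and the value ranged from -2.05 to -1.28 when 1 library was left out.

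Fasn, fatty acid synthase, was at 839, 1630, 3410 and 1060 CPM in WT and at 1470, 782, 645 and 1060 CPM in KO. The groups overlapped, and the difference was -0.81 with a 95% interval from -1.54 to -0.09 (edgeR adjusted p = 0.998). The value ran from -1.07 to -0.26 when 1 library was left out, smallest in size without WT replicate 3, and was -0.16 without the libraries over the liver limit. Acly, which supplies cytosolic acetyl-CoA, was at 339, 613, 909 and 389 CPM in WT and 613, 383, 391 and 402 CPM in KO, a difference of -0.33. WT replicate 3 and KO replicate 1 were the highest of their groups for both genes. The elongase gene Elovl6, the desaturase gene Scd2 and the citrate carrier gene Slc25a1 stood at -0.22, -0.29 and -0.11. Scd2 turned to 0.11 without WT replicate 3 and to 0.18 without the libraries over the liver limit. Acly turned to 0.06 in the latter.

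Summed over the 16 genes, fatty acid synthesis took 0.948%, 1.2%, 2.35% and 0.974% of counts in WT replicates 1 to 4 and 0.818%, 0.638%, 0.409% and 0.519% in KO replicates 1 to 4. The groups did not overlap, and Scd1 took the most counts of any member in all 8 libraries. Of the 16 genes only Scd1 lay without overlap on its own, so the separation of the sum is not a result for the others. WT replicate 3, the highest, was also 1 of the libraries over the liver limit.

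**Figure D4:**
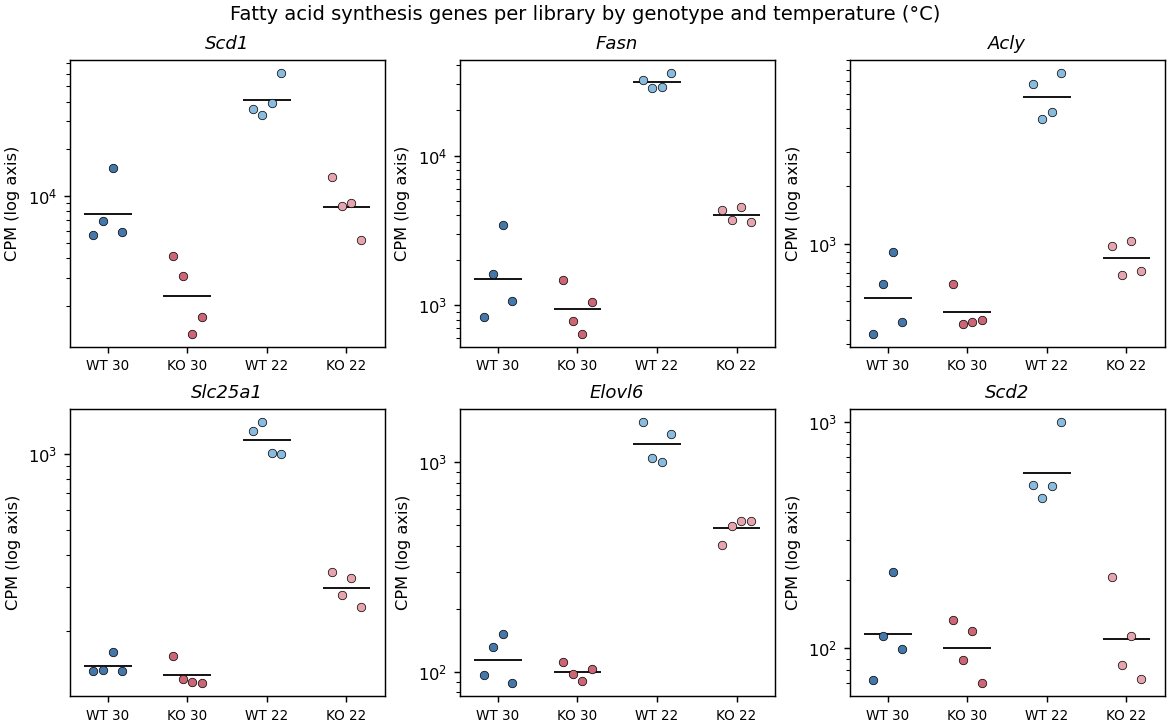
CPM per library on a log axis for 6 fatty acid synthesis genes in WT and KO at 30 and 22 °C, with a line at the geometric mean. At 30 °C the KO and WT libraries are apart for Scd1 and overlap for the other genes, and both genotypes lie below WT at 22 °C.

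The transcription factors of lipogenesis were close between genotypes. Srebf1, which encodes SREBP1, was at 289 ± 41.8 CPM in WT and 297 ± 98.2 CPM in KO, and Mlxipl, which encodes ChREBP, was at 392 ± 30.4 and 368 ± 48.6 CPM. Thrsp, a lipogenic protein induced by both factors and by thyroid hormone, was at 1230 ± 109 and 1400 ± 246 CPM. None of the 13 tested members was called by edgeR and 1 had an unadjusted p under 0.05. That was Insig1, the endoplasmic reticulum anchor of SREBP, at 87.2, 112, 150 and 110 CPM in WT and 90.3, 83.3, 77.7 and 80.2 CPM in KO, with a difference of -0.47 and overlap through WT replicate 1.

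In cholesterol synthesis 0 of 23 genes were called and the median was 0.01. Idi1, Dhcr7 and Sc5d had an unadjusted p under 0.05, at -0.77, -0.30 and -0.34, which is 3 of 23 against 4.31% of all genes tested. Hmgcs1, an early enzyme of the pathway, was at 173 ± 27.3 CPM in WT and 188 ± 21.0 CPM in KO.

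Genes for storing and releasing fat held no calls. Of 15 genes of triglyceride and glycerol metabolism, 16 of fatty acid uptake and activation and 17 of lipolysis and the lipid droplet, 0 were called by edgeR, with medians of 0.04, 0.07 and 0.10. Aqp7, the glycerol channel of adipocytes, was the 1 gene of these with an unadjusted p under 0.05, at -0.22. Pnpla2, adipose triglyceride lipase, was at 3610 ± 215 CPM in WT and 3880 ± 174 CPM in KO, and Fabp4, the fatty acid binding protein of adipocytes, was at 6290 ± 445 and 6550 ± 681 CPM. Cd36, a fatty acid transporter, was at 2351 ± 8.22 and 2254 ± 60.4 CPM, with all KO libraries below WT at a log2 difference of only -0.06.

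Nuclear genes of the respiratory chain had small and mostly positive differences. Of 55 nuclear-encoded subunits of oxidative phosphorylation, 54 had a positive log2 difference, against 7628 of all 14103 genes, and the median was 0.11. None was called by edgeR, DESeq2 or limma-voom, 0 had an unadjusted p under 0.05, and 5 lay without overlap, above WT in each case: Sdhc, Sdhd, Ndufv2, Uqcrc1 and Uqcrc2. Of all 14103 genes, 474 lay without overlap above WT. At 22 °C the list's median was -0.33 and 27 of its 55 members were called lower, against 10.1% of all genes. Members of a list share libraries and their scaling, so the number of positive values is a description and not a test.

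Mitochondrially encoded genes took 23.2%, 24.7%, 22.9% and 25.7% of counts in WT and 26.3%, 26.6%, 27.4% and 24.1% in KO. The groups overlapped through KO replicate 4. Of the 13 genes on the list only 8 passed the filter on low counts, without mt-Nd4l, mt-Co2, mt-Co3, mt-Atp6 and mt-Atp8. The shares are therefore not the whole mitochondrial share of the RNA. Of the 8 such genes tested, mt-Nd4 and mt-Cytb had an unadjusted p under 0.05, at 0.21 and 0.20, against 4.31% of all genes. Nuclear copies of mitochondrial DNA leave these counts uncertain.

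Fatty acid oxidation genes had 20 of 24 positive values and a median of 0.10. Eci1, an enoyl-CoA isomerase needed for unsaturated fatty acids, was at 663, 637, 566 and 626 CPM in WT and 794, 745, 872 and 804 CPM in KO, with no overlap. Its difference of 0.37 passed limma-voom and not edgeR. Branched-chain amino acid catabolism had 18 of 20 positive values and the same median. Bcat2, Hibch and Hibadh had an unadjusted p under 0.05, 3 of 20 against 4.31% of all genes tested. Bcat2, the mitochondrial aminotransferase that starts the pathway, was at 185, 170, 148 and 166 CPM in WT and 243, 198, 244 and 197 CPM in KO. No library of either group crossed into the other, and the log2 difference was 0.40. The TCA cycle and pyruvate dehydrogenase list had a median of 0.05 over 22 genes, with Suclg2 at an unadjusted p under 0.05.

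Slc2a4, which encodes GLUT4, was at 478 ± 50.8 CPM in WT and 499 ± 54.7 CPM in KO, and Hk2, hexokinase 2, at 327 ± 26.4 and 330 ± 67.4 CPM. None of 21 genes of glucose transport and glycolysis was called by edgeR, and Ldhb had an unadjusted p under 0.05 at 0.26. In the pentose phosphate pathway 0 of 7 were called, and Pgls stood at 0.34. Of 17 glycogen genes 0 were called by edgeR. Pygb, a glycogen phosphorylase, was at 168, 201, 205 and 211 CPM in WT and 144, 126, 145 and 161 CPM in KO, and Phka2, a subunit of the kinase that activates glycogen phosphorylase, at 50.5, 59.8, 57.6 and 59.2 CPM and 46.3, 49.7, 44.5 and 40.9 CPM. Both were without overlap, at -0.44 and -0.32, and Phka2 passed limma-voom. Gys2, the liver form of glycogen synthase, stood on the other side at 0.54 (unadjusted p = 0.0278), at 28.2 ± 5.58 CPM in WT and 41.2 ± 11.2 CPM in KO with overlap.

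Of 29 thermogenic and brown adipocyte genes, 0 were called by edgeR, DESeq2 or limma-voom and 0 had an unadjusted p under 0.05, and the median was 0.08. Dio2, which activates thyroid hormone inside brown fat, was at 13.5 ± 8.25 CPM in WT and 20.7 ± 4.48 CPM in KO. Prdm16 and Ppargc1a, regulators of brown fat identity and of mitochondrial genes, stood at 0.02 and 0.05.

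Lep, which encodes the adipokine leptin, and Nnat were lower in all KO libraries without passing the test. Lep was at 101, 88.8, 107 and 97.1 CPM in WT and at 76.9, 63.8, 38.3 and 50.5 CPM in KO. The groups did not overlap, and the log2 difference was -0.78 (unadjusted p = 0.16). Nnat, an imprinted gene expressed in adipocytes, was at 277, 214, 167 and 182 CPM in WT and at 92.9, 65.2, 95 and 166 CPM in KO, a difference of -1 (unadjusted p = 0.0698). The model took its estimate of the spread from all 16 libraries, so these p-values do not measure the spread at 30 °C alone. At 22 °C Lep was at 45.3 ± 37.3 CPM in WT and 9.59 ± 9.01 CPM in KO. Nnat was at 11.8 ± 9.42 and 12.3 ± 9.19 CPM there. Lep and Nnat are also white adipocyte associated markers. That list, of which 7 members were tested and 0 called, took 0.0339% to 0.0497% of counts in WT and 0.0172% to 0.0287% in KO, and its part in these results was not tested. Lep and Nnat themselves made up most of that share on average in both genotypes, so it is not a separate result. Adipoq, adiponectin, was at 1073 ± 71.4 and 1197 ± 72.4 CPM.

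The remaining lists held 0 calls by edgeR. Over all 27 lists, DESeq2 and limma-voom added Scd1, Phka2 and Eci1, each by limma-voom alone, to the call of Akt2. Cytosolic ribosomal proteins had 28 of 32 positive values and a median of 0.17, and proliferation genes 19 of 23 and 0.22, with no member of either at an unadjusted p under 0.05. Immediate early and NR4A genes had a median of 0.16 with a median SE of 0.58, and interferon-stimulated genes a median of 0.15. Circadian genes had a median of -0.08, with Cry2, a core clock repressor, at 45.3 ± 6.41 CPM in WT and 36.5 ± 2.71 CPM in KO. Unfolded protein response, ATF4, extracellular matrix and antioxidant lists had medians of 0.05, 0.02, 0.01 and 0.11. Fn1, fibronectin, was at 22.0 ± 1.26 and 33.3 ± 4.73 CPM without overlap, at a log2 difference of 0.60. Lox, the lysyl oxidase that cross-links collagen, was lower without overlap, at 28.9 ± 1.93 and 21.7 ± 2.71 CPM and a difference of -0.41 (unadjusted p = 0.0304). Of the most abundant members of other lists, Acadl stood at 0.16, Aldh6a1 at 0.15, Gpx3 at 0.14, Hspa5 at 0.20, mt-Co1 at 0.18, Rpl8 at 0.21, Inppl1 at -0.13 and Sparc at -0.02, and none of the 8 passed edgeR.

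**Figure D5:**
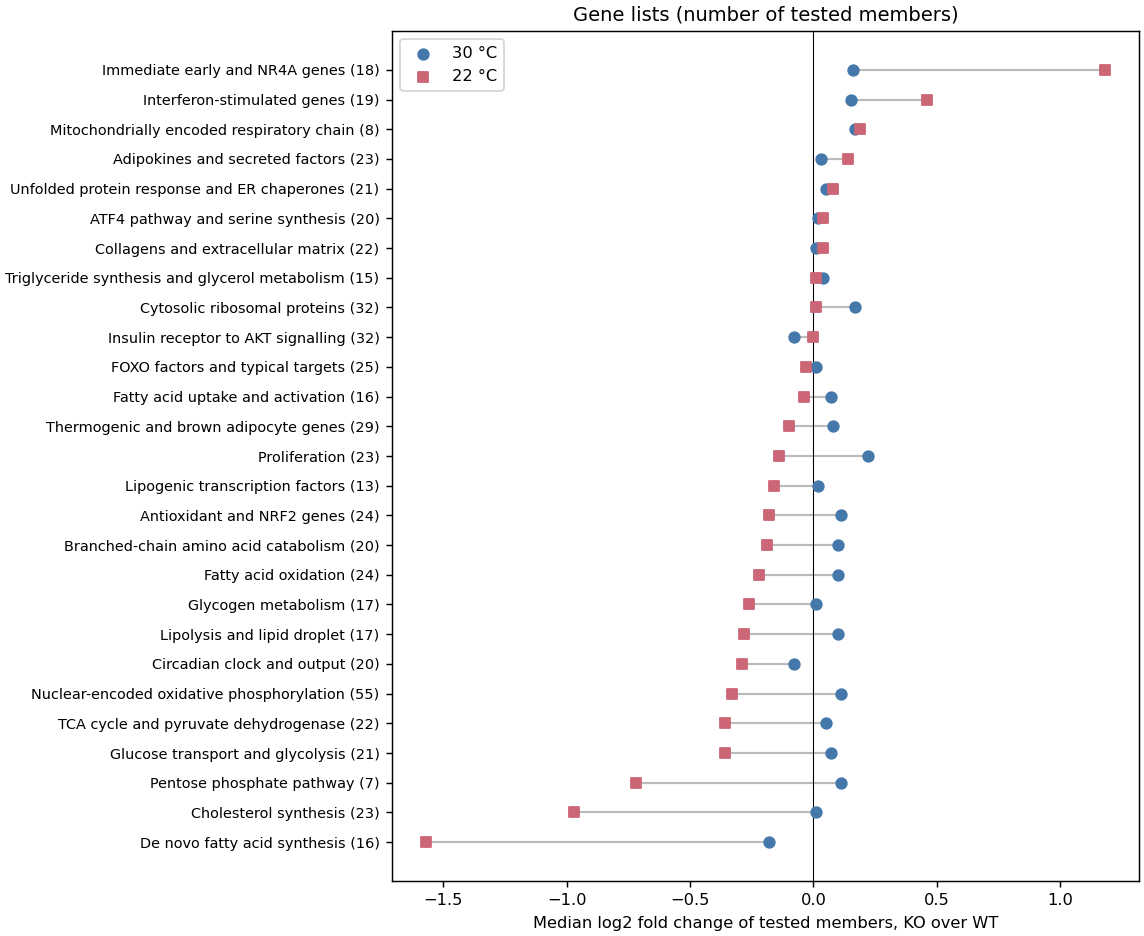
Median log2 fold change of KO over WT for the tested members of 27 gene lists, at 30 °C (blue circles) and 22 °C (red squares). At 30 °C the medians lie between -0.18 (de novo fatty acid synthesis) and 0.22 (proliferation), while at 22 °C they run from -1.57 (de novo fatty acid synthesis) to 1.18 (immediate early and NR4A genes).

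Markers of other cell types were compared as summed shares of counts. Macrophage markers took 0.0306% to 0.0487% of counts in WT and 0.0330% to 0.0396% in KO, and endothelial and mural markers 0.243% to 0.262% and 0.244% to 0.272%. Fibroblast and preadipocyte markers took 0.0170% to 0.0198% and 0.0183% to 0.0233%. Dpp4, Pi16 and Mfap5 of that list had an unadjusted p under 0.05 with log2 differences of 1.21, 1.24 and 0.73, and Pdgfra had one at -0.32. These were 4 of 10 tested, against 4.31% of all genes, and 0 were called by edgeR. Mammary, keratinocyte and lymph node stroma markers were near 0, at 0.000091% to 0.000225% in WT and 0.00026% to 0.000342% in KO, without overlap. Only 2 of the 10 passed the filter, the chemokine genes Ccl21a and Cxcl13, at 1.62 and 1.84 with unadjusted p under 0.05, and 0 were called by edgeR. The part of these cells in other results was not tested. The 20 skeletal muscle markers had a median of 0.56 with a median SE of 1.63, and 0 of the 20 were called by edgeR.

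The effect of the knockout at 30 °C was set against that at 22 °C by a test of the difference between the effects, using all 16 libraries. It called 443 genes, or 3.14%, of which 337 had a more positive and 106 a more negative effect at 30 °C. The effect was larger in size at 22 °C for 431 of the 443 and at 30 °C for 12. The count ran from 147 to 1085 when 1 of the 16 libraries was left out, and was 15 without the libraries over the muscle limit, with 15 more positive and 0 more negative. That limit removed 5 libraries, 4 at 30 °C and KO replicate 1 at 22 °C. All 6 genes called at 30 °C were also called at 22 °C in the same direction, which is 100% of the 6 and 0.242% of the 2482, and 0 of the 6 passed the edgeR test of the difference. The comparisons at the 2 temperatures share no library but share the estimate of the spread.

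The 6 genes with the smallest p on the positive side of that test had log2 differences between -0.21 and 0.18 at 30 °C. Pygl, liver glycogen phosphorylase, was at 303, 411, 406 and 312 CPM in WT and 450, 358, 387 and 358 CPM in KO at 30 °C, a difference of 0.12 against -1.85 at 22 °C. Pnpla3, a lipid droplet protein, stood at -0.21 against -2.19, and Nsdhl, an enzyme of cholesterol synthesis, at -0.12 against -1.75. Slc25a1, the mitochondrial citrate carrier, stood at -0.11 against -1.94, Slc38a10, an amino acid transporter, at -0.10 against -1.12, and Thrsp at 0.18 against -1.75. These 6 differences ran from 1.02 to 1.98 with edgeR adjusted p up to 0.000276, and stayed past the threshold when any 1 library was left out. Without the libraries over the muscle limit the call of Slc38a10 was lost (adjusted p = 0.0561) and the other 5 were kept. For Fasn the difference of 2.13 passed (edgeR adjusted p = 0.0309) but was kept in only 9 of 16 fits without 1 library, and for Scd1 the difference of 0.50 did not pass (adjusted p = 0.621).

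On the negative side, Kctd12, a subunit that tunes GABA-B receptors, was at 57.6, 57.8, 58.3 and 57.9 CPM in WT and 52.2, 56.9, 59.3 and 61.2 CPM in KO at 30 °C. The WT libraries lay within the KO range, at a difference of -0.01 against 0.95 at 22 °C. Ing1, a chromatin reader, stood at 0.02 against 1.02, and Cntfr, a receptor for ciliary neurotrophic factor, at 0.07 against 2.35. Sgsm2 and Wdfy1 stood at -0.29 and -0.22 against 0.91 and 0.57, and with Sgk2 these 6 genes kept the call in all 16 fits that left out 1 library. None of the 6 was called without the libraries over the muscle limit, where edgeR's adjusted p ran from 0.0561 to 0.1.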

How the data were processed

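Per the labels' protocols, total RNA of interscapular brown fat was column-purified, treated to remove DNA and made into Illumina libraries. The authors deposited raw counts for Ensembl genes in 1 column for each library, with no sign of normalisation in the values. The submitters' processing notes list STAR 2.4.2a, FastQC 0.10.1 and edgeR 3.14.0, and the builds mm10 and GRCm38, without their roles. How reads were assigned to genes, with which annotation and whether by strand, was not given in the sources used here.

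Of 38924 identifiers, 37607 had a symbol, and the other 1317 held at most 0.131% of a library's counts. The edgeR filter (minimum count 10) kept 14103 of 24818 genes with counts, which held at least 99.9% of counts. All 16 libraries entered 1 edgeR 4.0.16 quasi-likelihood model (R 4.3.3) with a term per group, TMM factors and 12 residual degrees of freedom. A gene was called when its p, adjusted over all genes by the Benjamini-Hochberg method, was under 0.05. The SE was taken from the log2 fold change and its F statistic, and intervals are 95% intervals from the t distribution. The common biological coefficient of variation was 22.5%. Levels are CPM on TMM-adjusted library sizes, and shares are percent of raw counts. Coordinates are from GENCODE M21 on GRCm38, and promoters from RefSeq (GRCm38.p6). No replicate pair looked like a duplicate, the lowest chi-square per degree of freedom being 7.685.

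The members, the 37 gene lists (27 pathways and 10 marker lists) and the naming rule were chosen with earlier results of these data known. The rule named Akt2, Akt1, Ucp1, Mlxipl, Srebf1 and Fasn, called members or the most abundant member of each list, and called genes with a mean log2 CPM of at least 2 and no overlap (12 at most in each direction). It also named the 6 smallest p in each direction of the difference between temperatures. Other genes were named with their values known. Of the genes under the rule, 3 are not reported here.

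Alternatives were other scaling factors, a test of every gene with counts, a stricter filter (a mean count of 20 and 4 libraries at a CPM of 1), limma-voom (limma 3.58.1) with quality weights, DESeq2 1.42.0, only the libraries at 30 °C, the replicate number as a block, and leaving out each library. The muscle and liver limits, the muscle covariate and the liver list were chosen after seeing the data.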

Additional observations from a re-analysis of the deposited data

Results flagged for a closer look

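For the named genes, 15 of 184 groups of 4 libraries at 30 °C held a library that stood far from the other 3 by Dixon's test, which sets its gap to the nearest library against the range of the group. Chance alone gives about 1 in 20 such groups. WT replicate 3 stood high for Scd1 at 15200 CPM (others 5600 to 6930), Slc25a1 at 166 (139 to 140), Trib3 at 20.8 (14.2 to 15.3) and Edem1 at 97.2 (80.8 to 82.6). KO replicate 1 stood high for Acly at 613 CPM (others 383 to 402), Slc25a1 at 160 (125 to 130) and Plxdc2 at 17.3 (14.8 to 14.9), and low for Sgk2 at 6.57 (10.6 to 11.1). Elmod2 was low in WT replicate 1 at 28.2 CPM (33.8 to 34.7). Sulf2, an extracellular sulphatase, was low in WT replicate 2 at 72.2 CPM (82.4 to 83.4) and in KO replicate 4 at 48.4 (60.6 to 62.1). Atp5b was high in WT replicate 2 at 7090 CPM (6670 to 6680), Abcc8 in WT replicate 4 at 2.18 (1.66 to 1.73), and Aqp7 in KO replicate 4 at 342 (260 to 269). Pgls was low in KO replicate 2 at 178 CPM (205 to 210).

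The test of the difference between the knockout effects (30 °C minus 22 °C) passed for 29 named genes, by edgeR's adjusted p. More positive at 30 °C were the lipid genes Acly (2.47), Fasn (2.13), Scd2 (2.11), Pnpla3 (1.98), Thrsp (1.94), Slc25a1 (1.83) and Elovl6 (1.13), and the sterol enzymes Nsdhl (1.63), Sc5d (0.98) and Dhcr7 (0.89). The same held for Pygl (1.96), Tkt (1.71), Aldoa (1.26) and Gpd1 (0.78) of sugar metabolism. It held also for Abcc8 (1.68), Pqlc3 (1.40), Slc38a10 (1.02), Grb14 (0.92), Prdx1 (0.59) and Hibch (0.42). For Gpd1 and Grb14 the call was kept in only 3 of the 16 fits that left out 1 library. The number kept was 6 for Scd2, Prdx1 and Hibch, 9 for Fasn, 13 for Elovl6 and Sc5d and 16 for the others on this side. More negative at 30 °C were Sgk2 (-3.37), Cntfr (-2.28), Sgsm2 (-1.20), Ing1 (-1), Rarres2 (-0.98), Kctd12 (-0.96), Sema5a (-0.89), Wdfy1 (-0.79) and Plxdc2 (-0.60).

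For Abcc8, Rarres2, Sema5a and Plxdc2 the sign of the knockout effect was not that at 22 °C. The signs also differed for Pygl, Thrsp, Tkt, Aldoa, Gpd1, Prdx1, Hibch, Sgsm2, Kctd12 and Wdfy1. Of all 443 genes called for the difference, 148 had the same sign at both temperatures. Abcc8 stood at 1.08 at 30 °C and -0.60 at 22 °C, Rarres2 at -0.73 and 0.26, Sema5a at -0.60 and 0.29, and Plxdc2 at -0.47 and 0.13, none of them past edgeR's adjusted p at either temperature. The call of the difference was kept for Abcc8 in all 16 fits that left out 1 library, and for Plxdc2, Sema5a and Rarres2 in 9, 6 and 2 of them.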

How the results depend on the processing

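The count of 6 genes at 30 °C was 6 with relative-log-expression or upper-quartile factors, without a filter, with the stricter filter, with the replicate block and with the muscle covariate, and 4 with only the libraries at 30 °C (3 of the 6, and Pld6). It was 22 in DESeq2, 44 in limma-voom, 2 with only the libraries at 30 °C and the replicate block, 1 without the libraries over the muscle limit and 2 without those over the liver limit. Leaving out 1 library gave 2 to 7. The 443 differences between temperatures were 236 without a filter, 1060 in DESeq2, 1050 in limma-voom, 186 with the replicate block, 15 without the libraries over the muscle limit and 147 to 1085 without 1 library, the highest without WT replicate 4 at 22 °C. The fits without libraries have fewer samples, and the other causes were not tested. The replicate numbers gave no sign of pairing the libraries at 30 °C: deviations of same-numbered libraries correlated at -0.14, 0.39, 0.27 and -0.24, and no WT library correlated best with its own number. Of 21 settings, Akt2 was called in 21, Mreg in 19, Akt2-ps and Elmod2 in 16, Ucp2 in 15 and Kcnk2 in 12.

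Some uncalled log2 differences at 30 °C changed sign. In limma-voom Cebpb was -0.1, Jund -0.03, Pck1 -0.02 and Ing1 0. With the replicate block Cebpb was 0, and with only the libraries at 30 °C and the block Cebpb was -0.03 and Srebf1 -0.01. Without the libraries over the muscle limit Srebf1 was -0.49, Gpd1 -0.09, Pcna -0.08, Aldoa -0.03, Tkt -0.03, Kctd12 0.05 and Ucp3 0.07. Without those over the liver limit Cntfr was -0.01, Nsdhl 0.03, Acly 0.06 and Scd2 0.18. Leaving out 1 library gave ranges that crossed 0 for Cebpb (-0.29 to 0.15), Cfd (-0.02 to 0.29), Cntfr (-0.1 to 0.18), Ing1 (-0.03 to 0.06), Jund (-0.13 to 0.11), Kctd12 (-0.05 to 0.03), Pck1 (-0.1 to 0.08), Pcna (-0.02 to 0.06), Scd2 (-0.49 to 0.11), Srebf1 (-0.2 to 0.18), Tef (-0.32 to 0.04), Tkt (-0.06 to 0.13) and Ucp3 (-0.39 to 0.01).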
